A study of Mus musculus with 2 samples.

Results

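H3K27me3, histone H3 with 3 methyl groups on lysine 27, was mapped in mouse rib chondrocytes, and 458 of the 2017 listed regions (22.7%) lay inside a gene and away from a 5′ end. A region was counted as a gene-body region if it overlapped a gene named in the list and if its nearer edge was more than 2500 bp from the 5′ end of every gene named for it. The rule used positions only and no measured level. Another 578 regions lay within 2500 bp of a 5′ end (5′ end regions), 248 lay beside a named gene and farther than that from its 5′ end (flanking regions), and 733 had no named gene. Distances were measured to the nearer edge, so the length of a region enters the rule. The list names genes up to 4979 bp away and does not separate exons from introns.

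The data were 1 ChIP library made with an antibody against H3K27me3 and 1 input library, which was 2% of the same chromatin without the antibody step. The cells were chondrocytes, the cartilage cells, taken from the ribs of 11 wild-type mice of the CD1 background at postnatal day 2.5 and pooled. They were kept overnight in culture with 5% serum on 2 dishes of 10 cm before cross-linking. The pooled animals gave 1 sample, neither library had a replicate, and the intervals given for ratios therefore cover counting error only.

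PRC2, the polycomb repressive complex 2, places H3K27me3 on chromatin, and EED is a core subunit that binds the finished mark. The mark is best known at the CpG-rich 5′ ends of silent developmental genes, above all those of homeobox factors, from where it can spread over a whole gene. CpG-dense stretches and promoters inside a gene can carry it as well. H3K27me3 is generally low over genes that a cell transcribes strongly.

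None of 20 chondrocyte marker symbols, among them Col2a1, Acan and Sox9, had a listed region of any class. Cnmd and its older name Lect1 were both counted, and symbols were matched as written. Outside the factor symbols used below, regions of any class named 659 of 20998 protein-coding genes. A count of 0 in so short a list is thus near the background. The same was true of 6 osteoblast and 4 endothelial markers. That background leaves out factor symbols, which Sox9 and some other markers match, so no background was taken for those markers. Regions named 2 of 6 skeletal muscle markers, 3 of 6 neuronal and glial markers and 1 of 3 blood markers, and of these only the muscle stem cell factor Pax7 had gene-body regions. No RNA was measured here, so these counts describe the mark and not the make-up of the culture.

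The 5′ ends of 6 genes with gene-body regions differed widely in their number of CG. Sequences of the gene-body regions themselves are not shown, since the genome of the list's build (mm9) was not used here. The 250 bases before the start of these 6 genes were taken from RefSeq (build GRCm38.p6, whose coordinates are not those of the list). They are printed 5′ to 3′ along the gene, with each CG in capitals. CG reads the same on both strands. The genes were chosen after their values were seen, so their spread does not describe all genes with gene-body regions. Cdh22, Lhx4, Slit3 and Asb18 had gene-body regions and no listed region within 2500 bp of their own 5′ end, whereas Lmx1b and Aldh1a2 had regions in both places.
Cdh22, chr2:165234738-165234987, minus strand: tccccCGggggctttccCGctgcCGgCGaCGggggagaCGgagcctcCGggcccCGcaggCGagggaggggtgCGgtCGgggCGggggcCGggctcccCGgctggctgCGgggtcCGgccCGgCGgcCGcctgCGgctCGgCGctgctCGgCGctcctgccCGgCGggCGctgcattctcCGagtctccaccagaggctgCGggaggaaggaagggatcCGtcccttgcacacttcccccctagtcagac
Lhx4, chr1:155742028-155742277, minus strand: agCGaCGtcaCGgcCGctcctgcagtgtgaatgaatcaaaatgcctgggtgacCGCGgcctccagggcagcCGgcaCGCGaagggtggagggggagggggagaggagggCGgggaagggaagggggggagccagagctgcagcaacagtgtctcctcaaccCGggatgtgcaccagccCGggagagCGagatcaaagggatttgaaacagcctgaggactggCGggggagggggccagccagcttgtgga
Slit3, chr11:35121206-35121455, plus strand: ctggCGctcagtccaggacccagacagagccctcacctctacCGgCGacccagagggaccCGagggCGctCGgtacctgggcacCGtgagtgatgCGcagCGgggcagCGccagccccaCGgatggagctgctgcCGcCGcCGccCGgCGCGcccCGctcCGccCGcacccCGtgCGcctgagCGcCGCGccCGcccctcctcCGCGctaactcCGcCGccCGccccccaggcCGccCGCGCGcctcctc
Asb18, chr1:90014667-90014916, minus strand: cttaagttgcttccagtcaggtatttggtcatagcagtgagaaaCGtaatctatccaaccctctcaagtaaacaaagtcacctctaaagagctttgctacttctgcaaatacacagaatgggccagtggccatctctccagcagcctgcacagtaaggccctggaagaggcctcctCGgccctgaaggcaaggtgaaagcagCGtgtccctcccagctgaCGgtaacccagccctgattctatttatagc
Lmx1b, chr2:33641099-33641348, minus strand: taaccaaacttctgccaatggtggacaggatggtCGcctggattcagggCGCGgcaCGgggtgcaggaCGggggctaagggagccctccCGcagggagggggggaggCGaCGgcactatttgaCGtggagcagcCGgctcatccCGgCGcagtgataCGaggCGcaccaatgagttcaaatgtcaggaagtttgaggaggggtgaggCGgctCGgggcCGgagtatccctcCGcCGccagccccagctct
Aldh1a2, chr9:71215539-71215788, plus strand: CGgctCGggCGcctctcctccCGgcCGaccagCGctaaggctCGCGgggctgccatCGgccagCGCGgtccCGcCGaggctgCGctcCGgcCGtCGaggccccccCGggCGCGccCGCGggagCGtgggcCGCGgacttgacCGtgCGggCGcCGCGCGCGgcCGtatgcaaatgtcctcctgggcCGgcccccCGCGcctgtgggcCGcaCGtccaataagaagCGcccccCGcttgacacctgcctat

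These windows held 30 CG in Cdh22, 14 in Lhx4, 35 in Slit3, 4 in Asb18, 19 in Lmx1b and 40 in Aldh1a2, beside a median of 6 over all 32851 promoters of the table. At least as many CG stood in 5.94% of all promoters for Cdh22, 29.4% for Lhx4, 2.97% for Slit3, 62.2% for Asb18, 19.7% for Lmx1b and 1.31% for Aldh1a2. The 4 genes with no listed region at the 5′ end thus included both CG-dense and CG-poor starts. Of the 307 genes with a gene-body region only 212 (69.1%) had an entry in the table, too few for a comparison over genes.

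Gene-body regions were shorter than 5′ end regions and carried the mark at nearly the same density. Their median length was 992 bp (95% interval of the median 921 to 1073, n = 458), beside 1222 bp (1122 to 1296, n = 578) for 5′ end regions. The middle part of the gene-body lengths, from the lower to the upper quartile, ran from 640 to 1523 bp, and the whole range from 339 to 5915 bp. Regions with no named gene had a median of 1006 bp and flanking regions one of 1075 bp, close to that of the gene bodies. Distances run to the nearer edge, so a longer region more easily reaches within 2500 bp of a 5′ end. The rule therefore enters the difference in length. Regions are not replicates of one another, so these differences are a description and were given no test.

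The density of ChIP tags, the mapped read positions, was alike in all classes. Gene-body regions had a median of 54.8 ChIP tags per kb (54.1 to 55.4) and 5′ end regions one of 54.1 (53 to 54.7). The list starts at a profile height of 8.0 and at 20 ChIP tags, so weaker stretches were not listed and low densities could not appear. Input density was 6.33 tags per kb at the median in gene bodies and 6.25 at 5′ ends. The median count in a gene-body region was 53.5 ChIP tags and 6 input tags, against 65 and 8 at 5′ ends, which follows the difference in length.

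Summed over all gene-body regions, 556024 bp (20.9% of the listed bp) held 29754 ChIP tags and 3896 input tags. The pooled ratio of ChIP to input tags was 7.64 (95% Clopper-Pearson interval 7.39 to 7.90, without scaling for library depth, which the list does not give). The ratio was 7.71 (7.51 to 7.93) at 5′ ends, 7.62 (7.30 to 7.96) in flanking regions and 7.12 (6.95 to 7.30) in regions with no named gene. The intervals of the 3 classes with a named gene overlapped, and that of the class without one lay below those of the gene-body and 5′ end regions. The typical region did not show this difference. Median input density was 6.06 tags per kb in regions with no named gene, beside 6.33 in gene bodies and 6.25 at 5′ ends. A pooled ratio gives more weight to regions with many tags, and the most input tags in a region with no named gene were 276. The deposited tag enrichment is the ratio of ChIP to input tags of a region, except that an input density under 9.20 tags per kb is replaced by that floor. It had a median of 5.75 in gene bodies, with a range from 2.51 to 8.31. The median was 5.62 at 5′ ends and 5.75 in regions with no named gene. In 351 gene-body regions (76.6%) the input lay at or below that floor, so most of these enrichments restate the ChIP density.

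**Figure D1:**
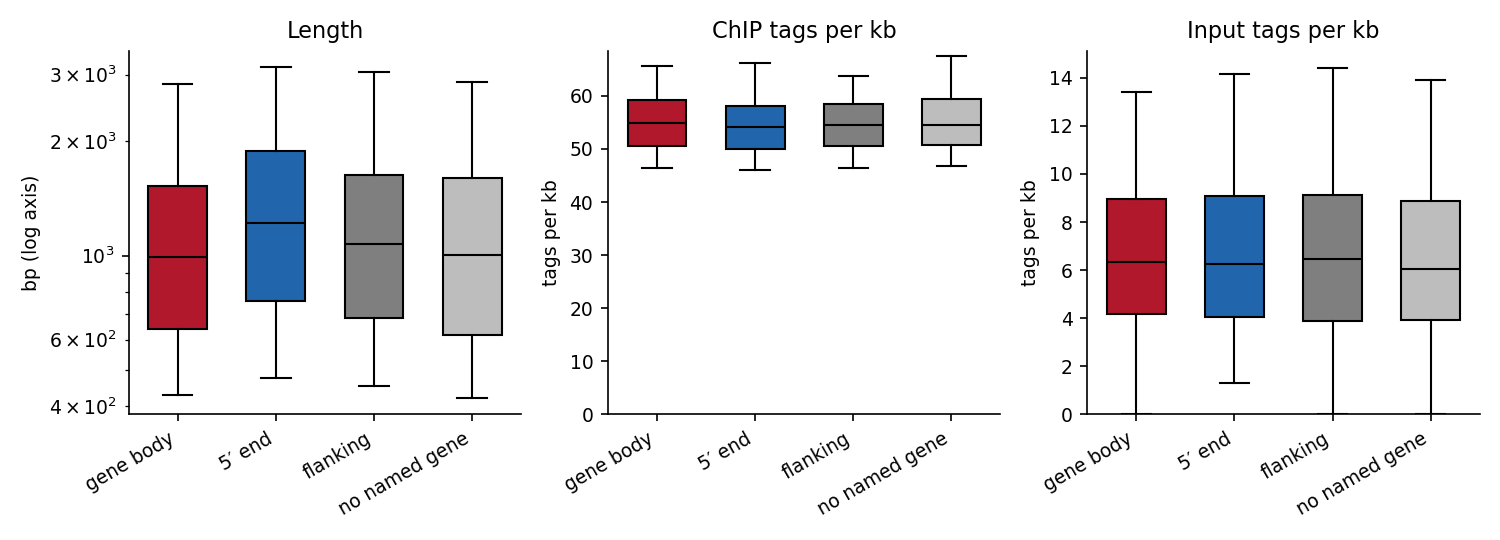
Length (bp, log axis), ChIP tags per kb and input tags per kb of regions in gene bodies, at 5′ ends, flanking a gene and with no named gene, with the median as a line, the quartiles as a box and the 5th to 95th percentiles as whiskers. The box of gene-body lengths sits lower than that of 5′ end regions (medians 992 and 1222 bp), and length enters the rule for these classes. The boxes of tag density nearly coincide (medians 54.8 and 54.1 ChIP tags per kb).

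High and broad regions were less frequent in gene bodies than at 5′ ends. Length enters the rule, since a longer region more easily reaches within 2500 bp of a 5′ end. A profile height of at least 10 was reached by 50 gene-body regions (10.9%), beside 13.1% of all listed regions and 16.1% of 5′ end regions. A length of at least 2000 bp was reached by 57 gene-body regions (12.4%), beside 16.5% of all listed regions and 22.5% of 5′ end regions. The median height was 8.64 in gene bodies and 8.66 at 5′ ends, so the typical region was equally high in both. The median deposited −log10 q-value was 46.7 in gene bodies and 53.3 at 5′ ends, a measure that grows with the number of tags.

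Gene-body regions lay between 2530 and 750432 bp from the nearest 5′ end, with a median of 8983 bp and quartiles of 4436 and 34889 bp. Of the 458 regions, 144 (31.4%) lay within 5000 bp, 95 between 5000 and 10000 bp, 126 between 10000 and 50000 bp, 32 between 50000 and 100000 bp and 61 (13.3%) farther away. The median length was 1114 and 1205 bp in the 2 nearest of these bins and 859, 938 and 843 bp in the others. Across the 458 regions, length and distance had a Spearman rho of −0.19. The rho of distance with ChIP density, input density, enrichment and height lay between −0.03 and 0.06. Regions of 1 gene share that gene's size and position, and all regions share the same 2 libraries, so these values are descriptions across regions.

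**Figure D2:**
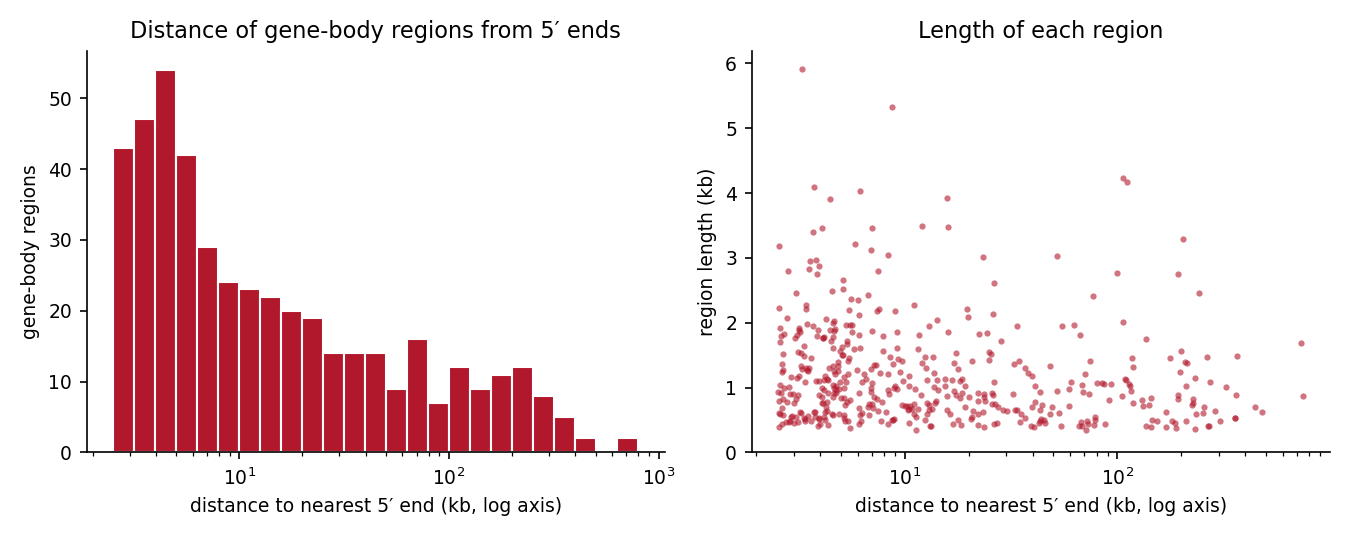
Number of gene-body regions by distance to the nearest 5′ end (left, kb on a log axis) and the length of each region against the same distance (right). Regions were most frequent just past the limit of 2500 bp, and the median length was 1114 bp from 2500 to 5000 bp and 843 bp beyond 100000 bp.

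Regions on either side of the limit looked alike in size. The 5 gene-overlapping regions just outside the rule belonged to Gp5 (2418 bp from the 5′ end, 81 ChIP tags), Rims4 (2443 bp, 140 tags), Trim36 (2458 bp, 59 tags), Prss36 (2482 bp, 26 tags) and Cyp26a1 (2490 bp, 71 tags). The 5 just inside belonged to Nr5a1 (2530 bp, 56 tags), Otx2 (2545 bp, 36 tags), Otop2 and Ush1g (2547 bp, 163 tags), Itpka (2555 bp, 114 tags) and Unc13a (2559 bp, 44 tags). Cyp26a1, an enzyme that breaks down retinoic acid, and Otx2, a homeobox factor of the anterior head, thus fall on different sides of a limit to which both are close.

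The 458 regions lay in 307 of the 922 genes named in the list. Of these genes, 214 (69.7%) had no listed region within 2500 bp of their own 5′ end and 93 (30.3%) had at least 1, while 43.9% of all 922 named genes had none. When only the limit for a 5′ end region was raised to 5000 bp, 141 of the 307 genes (45.9%) had none. A gene-body region 2500 to 5000 bp from its own 5′ end then counts as a 5′ end region. With 5000 bp as the limit for both, 133 of 196 genes (67.9%) had none. At 5000 bp, 24.4% of all named genes had none. All named genes include those that are listed for a 5′ end region alone. Of the 214 genes, 10 had a listed region farther upstream and 204 had regions only inside the gene or beyond its 3′ end. A single gene-body region was found in 228 genes, 2 in 40, 3 in 16 and 4 or more in 23. Regions in genes with a marked 5′ end were longer (162 regions, median 1095 bp) than those in genes without (296 regions, median 911 bp), and their ChIP density was 54.5 and 54.9 tags per kb. The pooled ratio was 7.36 (6.99 to 7.76) in the former and 7.83 (7.50 to 8.18) in the latter, with intervals that overlapped. A gene without a listed region may still carry the mark below the height at which the list starts.

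The list itself does not place every gene at 1 start. Of 319 genes with 2 or more regions away from the 5′ end itself, 304 had distances that 1 start position accounts for within 1 bp, and 15 did not. Of these 15 genes, 12 had a gene-body region, among them the LIM homeobox gene Lhx6, Tbx4, Scn8a, Wnt7b and Cdkn2a, which is known for its separate first exons. For such genes, named after their values were seen, the distance depends on the transcript that the list used.

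The gene with the most gene-body regions and no region at its 5′ end was Cdh22, a cadherin of the cell surface. Its 8 regions lay 3551, 5440, 23664, 40915, 48220, 54941, 114394 and 115494 bp from the 5′ end. They held 69, 76, 59, 48, 64, 107, 55 and 49 ChIP tags in that order, and 4, 12, 4, 2, 2, 16, 3 and 6 input tags. Together they gave 527 ChIP and 49 input tags, a ratio of 10.8 (8.02 to 14.7), whose interval lies above the pooled ratio of gene-body regions. A flanking region with 104 ChIP and 12 input tags lay 4363 bp upstream of the 5′ end, and a further one with 63 and 7 lay downstream of the gene. Between that upstream region and the gene-body region at 3551 bp, the stretch in which the list places the 5′ end and before which RefSeq gives the CG-dense window printed above, no region was listed.

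Skap1, an adaptor protein of T cells, also had 8 gene-body regions, together with a region of 121 ChIP tags 1500 bp upstream of its 5′ end. The gene-body regions lay between 37968 and 242348 bp from the 5′ end and held between 24 and 129 ChIP tags, with the most in the region farthest away. Their sum was 516 ChIP and 62 input tags, a ratio of 8.32 (6.39 to 11.0). Nav2, which is needed for the outgrowth of nerve fibres, showed a gap between its regions. Regions of 64 and 24 ChIP tags lay at its 5′ end, and the next listed region followed at 191784 bp. From there to 232986 bp, 6 regions held 41, 139, 162, 64, 56 and 60 ChIP tags.

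P140, an adaptor protein of Src kinase now named Srcin1, had 7 regions between 23301 and 41065 bp from its 5′ end and none nearer. They held 170, 60, 80, 48, 28, 67 and 67 ChIP tags from the nearest to the farthest, and 18, 12, 4, 3, 2, 10 and 7 input tags. The ratio over the gene was 9.29 (7.04 to 12.5). Spnb4, the spectrin now named Sptbn4, had 5 regions in 2 groups, with 28 and 24 ChIP tags at 40336 and 43002 bp and 96, 55 and 61 ChIP tags from 67016 to 70252 bp.

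**Figure D3:**
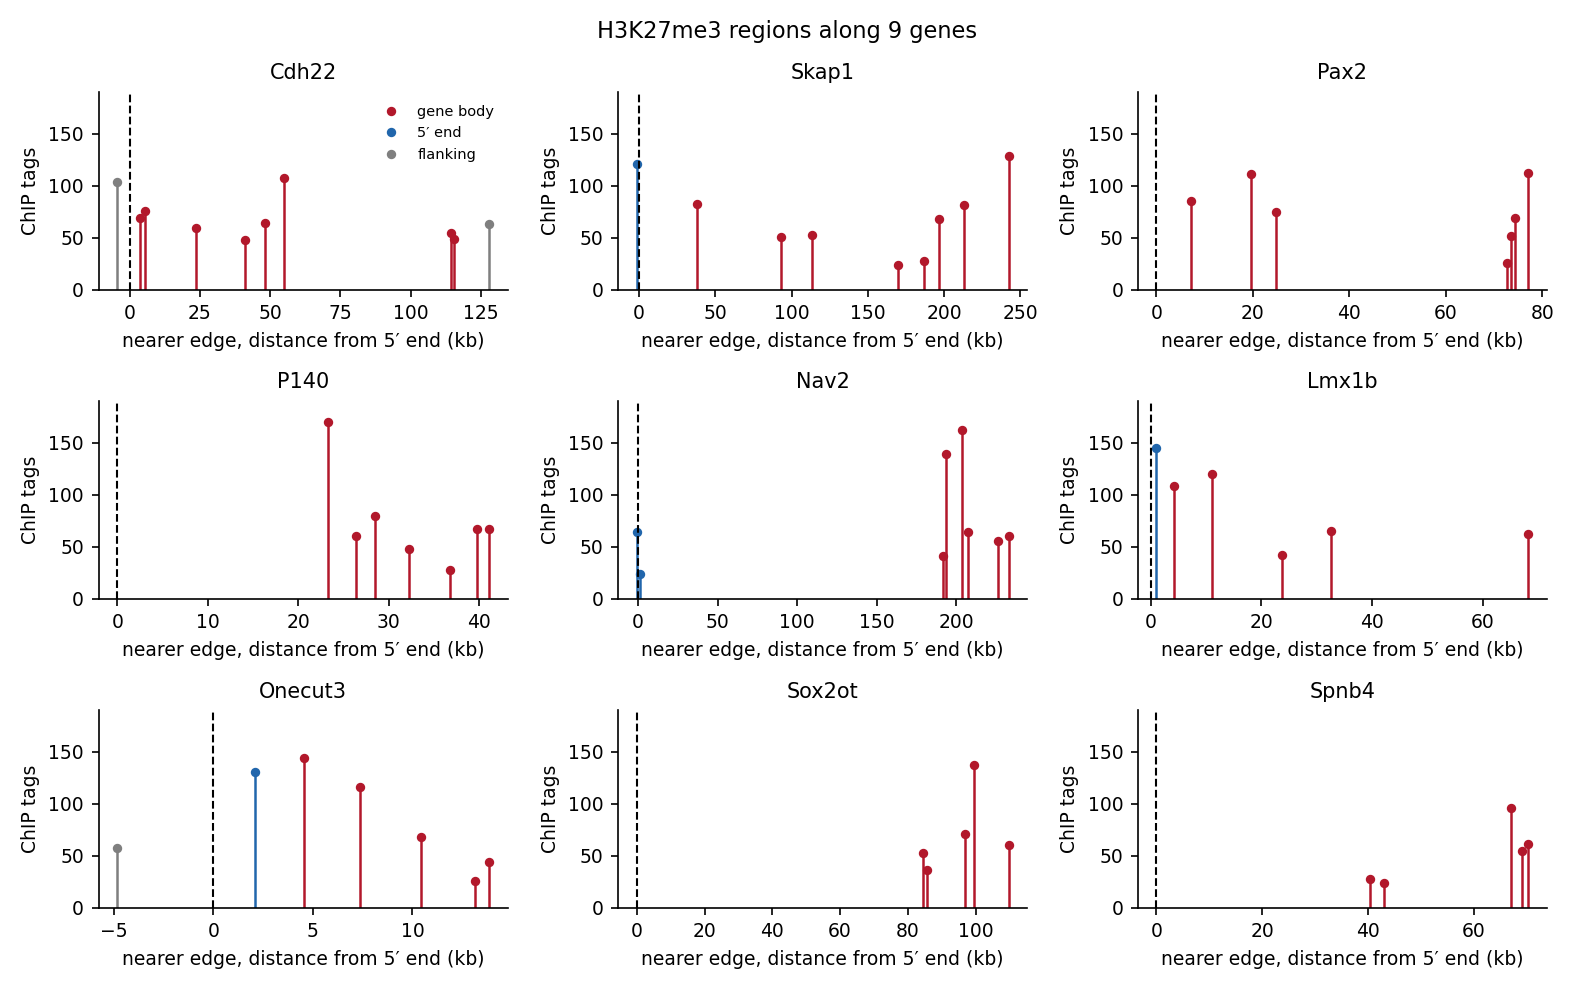
ChIP tags of each listed region (point and stem) against the distance of its nearer edge from the gene's 5′ end (kb, dashed line at 0) for Cdh22, Skap1, Pax2, P140, Nav2, Lmx1b, Onecut3, Sox2ot and Spnb4, with gene-body regions in red, 5′ end regions in blue and flanking regions in grey. Cdh22, Pax2, P140, Sox2ot and Spnb4 had no 5′ end region, and the 6 gene-body regions of Nav2 all lay beyond 191784 bp.

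The highest and the third highest ChIP counts belonged to a pair of adjacent regions shared by Raet1a, Raet1b and Raet1c, genes of ligands for a receptor of natural killer cells. They held 297 and 277 ChIP tags but also 80 and 87 input tags, and input ran at 2.08 and 2.23 times the floor. Raet1 genes are near-identical copies, so counts at this locus are uncertain, and the part of read placement in them was not tested. The 5 regions of this locus gave 710 ChIP and 196 input tags, a ratio of 3.62 (3.09 to 4.27). This interval lay below the pooled ratio of gene-body regions, which was 7.85 without these 5 regions.

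Input of at least 2 times the floor was found in 5 gene-body regions (1.09%), beside 1.59% of all listed regions. The others were in 5031410I06Rik (93 ChIP and 37 input tags), LOC547349 (40 and 13) and Dnahc8 (30 and 10), which were named after their values were seen. Input was 0 in 26 gene-body regions (5.68%), beside 5.45% of all listed regions. The largest ChIP count among these 26 was 57, in the kinase scaffold gene Ksr1, which the rule for named genes did not pick, followed by 49 in the region of Lhx4 farthest from its 5′ end. Against a floor of 3 input tags, which covers the error of the input count only, the ratios were at least 19.0 and at least 16.3. The lower Clopper-Pearson limits, which take in the error of both counts, were 15.0 and 12.8.

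Outside the Raet1 locus, the region with the most ChIP tags was also the longest, at 5915 bp. It lay over Espn, an actin-bundling protein of sensory hair cells, and Tnfrsf25, a death receptor (chr4:151493842-151499756, mm9), and held 279 ChIP and 41 input tags, a ratio of 6.80 (4.89 to 9.69). Next came regions of Prox1 (5326 bp, 241 ChIP and 34 input tags), Wnt10a (4028 bp, 234 and 38) and the protease gene Prss16 (4087 bp, 200 and 36). The ammonium carrier gene Rhcg (194 and 28), Dlx6os1 (184 and 18), Nhlh2 (184 and 24) and Lhx4 (181 and 18) completed the 10 largest. Prox1, Nhlh2 and Lhx4 encode transcription factors and Dlx6os1 is a noncoding transcript at the Dlx5 and Dlx6 genes.

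By deposited enrichment the order was different, and short regions led it. The 10 highest values ran from 7.47 to 8.31, and all of these regions were at most 858 bp long with at most 59 ChIP tags. They were regions of Wnt10a (471 bp, 36 ChIP and 2 input tags), Myb (36 and 1), Spnb4 (28 and 3), Espnl (45 and 1), Slc34a1 (33 and 4), Gm7348 (45 and 0), Pde11a (28 and 2), D430041B17Rik (52 and 6), Wnt6 (49 and 4) and Cdh22 (59 and 4). Their measured ratios had wide intervals, such as 4.63 to 154 for Wnt10a and 6.06 to 1461 for the blood progenitor factor Myb.

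The 5 regions farthest from a 5′ end belonged to genes that span long stretches. Camta1, a calmodulin-binding transcription activator, had 2 regions at 729699 and 750432 bp, with 83 and 45 ChIP tags over 11 and 6 input tags. Ctnnd2, a catenin of synapses, had a region at 476681 bp with 34 ChIP and 2 input tags. The sodium channel gene Accn1, now named Asic2, had one at 443125 bp with 34 and 6, and 1700106N22Rik had one at 366322 bp with 74 and 4. Apart from Accn1 none of these genes had a region at its 5′ end. Accn1 is among the genes whose distances 1 start does not account for, so its distance depends on the transcript used.

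Genes were then grouped by lists of symbols, and each share was read against all 922 named genes. Transcription factors made up 67 of the 307 genes with a gene-body region (21.8%), against 22.7% of all named genes and 24.2% of genes with a 5′ end region. Signalling ligands, receptors and antagonists made up 13 genes (4.23%, against 3.9% and 4.06%). Adhesion and axon guidance genes made up 12 genes (3.91%, against 2.06% and 1.16%), and channels, transmitter receptors and carriers 25 genes (8.14%, against 6.94% and 7.93%). Extracellular matrix genes made up 3 (0.977%, against 0.542% and 0.387%) and noncoding or provisional names 18 (5.86%, against 8.24% and 8.12%). The factor, signalling and channel shares were near the background. In all, 148 genes were in at least 1 list and 159 in none.

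The symbol patterns took in some genes that do other things, and missed others. The lists were then read gene by gene, after the names were seen. The factor list had 73 members, the signalling list 11, the channel list 22 and the noncoding list 22, while the other lists did not change. The 11 signalling genes still included Fgf12, which encodes no secreted ligand. Only the genes with a gene-body region were read in this way, so these counts have no background share. The corrections left out transcripts such as Sox2ot and the membrane protein Islr2, and added factors such as Prox1, Tbr1 and Casz1.

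**Figure D4:**
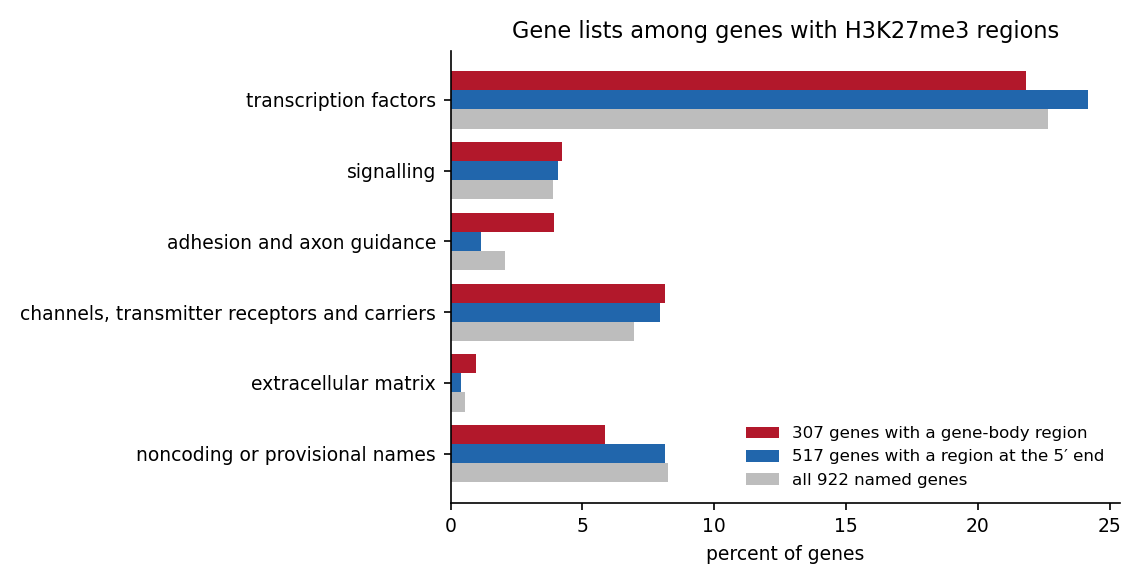
Share of genes in each list (percent) among the 307 genes with a gene-body region, the 517 genes with a 5′ end region and all 922 named genes. The factor share was 21.8%, 24.2% and 22.7%, and the adhesion and guidance share was 3.91%, 1.16% and 2.06%.

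The 67 genes that matched the factor patterns carried 118 gene-body regions, and they include 6 genes that were left out when the list was read by gene. Of the 67 genes, 35 (52.2%) had no listed region at their own 5′ end, beside 69.7% of all genes with a gene-body region. The median length was 1108 bp and the median distance to a 5′ end 6493 bp, both beside 992 and 8983 bp over all gene-body regions. The families with the most genes were Lhx and Pax with 6 each, Tbx with 5, Hox and Irx with 4, and Onecut and Tcfap2 with 3. A 5′ end region was also listed for 3 of the 6 Lhx genes, 4 of the 6 Pax genes and 4 of the 5 Tbx genes.

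Pax factors, which carry a paired domain and pattern the nervous system, kidney, muscle and vertebrae, had 19 gene-body regions with 1369 ChIP and 176 input tags, a ratio of 7.78 (6.64 to 9.15). Pax2, a factor of kidney and ear development, held 7 of them and had no listed region at its 5′ end. The regions lay at 7193, 19711, 24766, 72684, 73449, 74368 and 77082 bp, with 85, 111, 75, 26, 52, 69 and 112 ChIP tags and 9, 20, 14, 0, 10, 10 and 16 input tags. They fell into a group of 3 in the first part of the gene and a group of 4 from 72684 bp on, which spanned 6805 bp. Pax7, the factor of muscle stem cells, had 4 regions with 115, 55, 61 and 86 ChIP tags from 6005 to 62341 bp, a ratio of 10.6 (7.26 to 15.9) over the gene. Pax3, its relative in early muscle and neural crest, had 4 with 97, 39, 46 and 153 ChIP tags from 3034 to 51823 bp. Both also had a 5′ end region. Pax9, which patterns the vertebral column and teeth, had 1 gene-body region with 64 ChIP and 6 input tags, and Pax5, a factor of B cells, 1 with 37 and 2.

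LIM homeobox factors specify neurons and limb pattern, and 6 Lhx genes had 10 gene-body regions with 833 ChIP and 104 input tags, a ratio of 8.01 (6.53 to 9.92). Lhx4, a factor of the pituitary, had 3 regions at 5957, 8290 and 11934 bp with 70, 181 and 49 ChIP tags and 10, 18 and 0 input tags, and none at its 5′ end. Lhx6, a factor of cortical interneurons, had 3 regions with 252 ChIP and 40 input tags, a ratio of 6.30 (4.50 to 9.03). The related Lmx1b, needed for dorsal limb pattern, had a region of 145 ChIP tags at its 5′ end, followed at 4236, 11078, 23720, 32548 and 68244 bp by 108, 120, 42, 65 and 62 ChIP tags. The input counts of these 5 regions were 9, 13, 14, 12 and 11. The ratios in the same order were 12 (6.09 to 27), 9.23, 3.0 (1.61 to 5.95), 5.42 and 5.64. The intervals of the highest and the lowest did not overlap, but this pair was picked as the extremes of 5. ChIP density was 52.6 and 53.4 tags per kb in these 2 regions, and input density 4.38 and 17.8.

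Onecut factors, known from liver, pancreas and neurons, had the highest ratio of the families with 5 or more regions. Their 7 regions held 553 ChIP and 49 input tags, a ratio of 11.3 (8.42 to 15.4). Of these, 5 were in Onecut3, with 144, 116, 68, 26 and 44 ChIP tags at 4533, 7365, 10427, 13120 and 13842 bp, and with 11, 10, 4, 2 and 6 input tags. A 5′ end region with 130 ChIP tags and an upstream region with 57 lay before them. Onecut1 and Onecut2 had 1 region each, with 110 and 45 ChIP tags, and no listed region at the 5′ end. Input density was 0.48 times the floor in Onecut1, 0.61 in Onecut2 and 0.56 on average in Onecut3. ChIP density was 43.8 tags per kb in Onecut1, 50.8 in Onecut2 and 53.1 to 66.8 in Onecut3, beside a median of 54.8 over all gene-body regions.

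T-box factors shape heart and limbs, and the 5 genes with Tbx symbols had 9 regions with 506 ChIP and 67 input tags. Their ratio was 7.55 (5.84 to 9.90), and Tbx15 and Tbx5 held 3 of these regions each. Eomes and Tbr1, T-box factors with other symbols, were not in these sums. Tbx5, the forelimb factor, and Tbx4, the hindlimb factor, both had a 5′ end region as well. Hox genes, which give position along the body axis, had 7 gene-body regions in Hoxb3, Hoxb9, Hoxc9 and Hoxd3, with 715 ChIP and 106 input tags (ratio 6.75, 5.49 to 8.35). Hoxd3 held 4 of them, with 83, 100, 156 and 92 ChIP tags, between 18197 and 33566 bp from its own 5′ end. Irx factors had 5 regions in Irx1, Irx4, Irx5 and Irx6 (355 and 54 tags), and only Irx6 also had a 5′ end region. Tcfap2 genes, named for the AP-2 factors, had 4 regions with 168 ChIP and 15 input tags. Among factors that are important in the skeleton, Msx2 had a region of 112 ChIP and 12 input tags at 2798 bp and Shox2 a region of 99 and 21 at 6119 bp, and neither had a region at its 5′ end. Dlx5 had a region of 31 ChIP and 4 input tags.

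Factors that the patterns missed included Prox1, the homeobox factor of lymphatic vessels, which had 3 regions at 7011, 8733 and 19967 bp with 44, 241 and 42 ChIP tags and 5, 34 and 6 input tags, and none at its 5′ end. The zinc finger factor Casz1 had 4 regions between 35044 and 91372 bp with 162 ChIP and 17 input tags in all, also without a 5′ end region. Tbr1, a factor of cortical neurons, had 1 region with 57 ChIP and 2 input tags (ratio 28.5, 7.54 to 241).

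Signalling genes with gene-body regions were mostly Wnt genes, whose secreted ligands act through Frizzled receptors. Wnt10a, a gene that the study names, had 3 gene-body regions at 2856, 4137 and 6172 bp and no listed region within 2500 bp of its 5′ end. They held 36, 92 and 234 ChIP tags and 2, 18 and 38 input tags, so the count of both kinds of tag was highest in the region farthest from the 5′ end. Summed over the 3 regions the ratio was 6.24 (4.72 to 8.38). Together they spanned 7344 bp (chr1:74841449-74848792, mm9). Its neighbour Wnt6 had regions with 115 and 49 ChIP tags over 17 and 4 input tags at 5121 and 9975 bp, likewise with none at the 5′ end.

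The other Wnt genes had fewer tags. Wnt9a had 1 region with 83 ChIP and 7 input tags (ratio 11.9, 5.51 to 30.4), and Wnt3 had 2 regions with 41 and 37 ChIP tags over 6 and 0 input tags at 22123 and 28814 bp. Neither had a 5′ end region. Wnt3a, Wnt7a and Wnt7b each had 1 gene-body region, with 62, 43 and 37 ChIP tags over 10, 2 and 4 input tags, beside regions at the 5′ end. Summed over each gene, all the Wnt ratios had intervals that included the pooled ratio of gene-body regions, while the lower limit of the Wnt3 region without input tags was 9.54. Among other ligands, Fgf9 had 2 regions with 28 and 158 ChIP tags over 2 and 16 input tags and a 5′ end region. Fgf12, which matched by its symbol but encodes no secreted ligand, had 1 region with 23 ChIP and 6 input tags. The BMP-type ligand Gdf6, a factor of joint formation, had a region of 71 ChIP and 12 input tags at 13780 bp, and the neurotrophic factor gene Gdnf one of 50 and 7 at 6992 bp, and neither had a region at the 5′ end. Igfbpl1 and Ptchd2 matched the patterns but encode no ligand, receptor or antagonist known for these pathways.

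Adhesion and guidance genes lay at a larger share among genes with gene-body regions than among all named genes (3.91% and 2.06%), and 10 of the 12 (83.3%) had no 5′ end region, beside 69.7% of all genes with a gene-body region. Their 21 regions had a median distance of 40915 bp from a 5′ end, beside 8983 bp over all gene-body regions. Cdh22 held 8 of the 21. Slit ligands repel growing nerve fibres through Robo receptors. Slit1 had 3 regions with 37, 64 and 40 ChIP tags over 9, 10 and 6 input tags at 4267, 84923 and 118874 bp, and Slit3 had 1 region with 33 and 3 at 153673 bp. Robo3, a receptor of this family, had 1 with 35 and 4. Ephb1 and Epha10, receptors for ephrins, had regions with 74 and 84 ChIP tags over 10 and 8 input tags, and the ligand gene Efna3 had one with 29 and 2. Cdh4 had its region at 324354 bp, with 48 ChIP and 10 input tags, a ratio of 4.80 (2.40 to 10.6). Cntn2 (50 and 6), Itgb2l (32 and 1), Lrfn2 (27 and 0) and Nrxn2 (26 and 4) each had 1 region. Slit1 and Epha10 were the members with a listed region at the 5′ end.

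Of the 25 channel and carrier genes with gene-body regions, 17 (68.0%) had no 5′ end region, beside 69.7% of all genes with a gene-body region. Sodium channel subunits included Scn8a, with 47, 70, 38 and 56 ChIP tags over 0, 10, 2 and 8 input tags between 3130 and 108946 bp, and Scn4b, with 102 and 10 tags in 2 regions. Glutamate receptor subunits were Grin2c, with 75, 122 and 59 ChIP tags over 14, 13 and 13 input tags between 3438 and 9023 bp, and Grik3, with 77 and 12 in 2 regions. Calcium channel subunits were Cacna1a, whose 2 regions at 141388 and 143539 bp held 42 and 26 ChIP tags over 5 and 0 input tags, and Cacna2d2. Potassium channels included Kcnk4, Kcnk13, Kcng3 and Kcnd3, with 29 to 100 ChIP tags. Vesicular glutamate carriers were Slc17a7, with 168 ChIP and 30 input tags, and Slc17a6, with 29 and 3, both with a 5′ end region. Slc6a5, the glycine carrier of inhibitory neurons, had 87 and 12. Carriers of kidney and gut cells were also there, with 33 ChIP and 4 input tags in Slc34a1, 31 and 4 in Slc13a3, and 24 and 2 in Slc5a1. Grid2ip, Grip1 and Trp73 matched the patterns but are 2 scaffold proteins and a factor of the p53 family.

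Of the matrix genes, Col25a1 (45 ChIP and 1 input tags, 225060 bp from the 5′ end), Col4a3 (40 and 5, 130342 bp) and Adamtsl5 (81 and 21, 5751 bp) had 1 region each, and none had a 5′ end region. Col4a3 encodes a collagen of basement membranes, and Col25a1 one that spans the membrane of neurons. None is a defining gene of cartilage matrix.

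Several noncoding transcripts lie beside developmental factors, and gene-body regions were found in them too. Sox2ot, a long transcript that overlaps Sox2, had 5 regions at 84483, 85785, 96967, 99416 and 109760 bp with 53, 36, 71, 137 and 60 ChIP tags and 10, 3, 6, 17 and 2 input tags, a ratio of 9.39 (6.71 to 13.5). It had no listed region at its own 5′ end. The list also names Sox2, a factor of stem cells and neural progenitors, for 3 of these regions, which lay 4185, 3220 and 7343 bp from the 5′ end of Sox2 without overlapping it. Dlx6os1 had 1 region of 3477 bp with 184 ChIP and 18 input tags (ratio 10.2, 6.29 to 17.6), Emx2os 1 with 81 and 6, Pax6os1 2 with 105 and 12 in all, and Otx2os1 2 with 64 and 8 in all. The strand of a tag says nothing of the strand of a gene in ChIP-seq, so a region in overlapping genes cannot be given to either. Pax6 and Pax6os1 were both named, with 86 ChIP tags in 2 regions for Pax6. LOC547349 had 4 regions with 100, 85, 112 and 40 ChIP tags over 21, 29, 17 and 13 input tags, and its ratio of 4.21 (3.29 to 5.45) lay below the pooled ratio.

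Within 3000 bp, gene-body regions had a neighbour less often than regions of the other classes, and within 10000 bp no less often than 5′ end regions. Another listed region lay within 3000 bp of 164 of them (35.8%), beside 41.1% of all listed regions, 42.7% of 5′ end regions, 48.0% of flanking regions and 40.7% of regions with no named gene. The nearest neighbour of these 164 was another gene-body region in 118 cases, a 5′ end region in 40 and a flanking region in 6. Within 10000 bp a neighbour was found for 57.64% of gene-body regions, 57.61% of 5′ end regions, 68.1% of flanking regions and 60.0% of regions with no named gene. The median gap to the nearest region was 6565 bp for gene-body regions and 4664 bp for 5′ end regions, and the upper quartile was 60405 bp for the former and 137540 bp for the latter. The upper quartile was 22161 bp for flanking regions and 32722 bp for regions with no named gene, so gene-body regions lay farther from their neighbours than these 2 classes by that measure.

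When regions were joined across gaps of at most 3000 bp, 294 gene-body regions (64.2%) stayed alone, 56 (12.2%) joined a chain that contained a 5′ end region, and 108 joined chains without one. With gaps of up to 10000 bp, 194 stayed alone, 127 were in a chain with a 5′ end region and 137 in chains without. Chains without a 5′ end region were measured over their gene-body regions alone, and other regions in them were not counted. The longest were in Lhx6 (10068 bp, 3 regions, 252 ChIP tags), P140 (9795 bp, 4 regions, 358 tags) and Pde11a (8700 bp, 4 regions, 190 tags). The Raet1 genes (8494 bp, 2 regions, 574 tags) and Wnt10a (7344 bp, 3 regions, 362 tags) came next. Chains followed in Prox1 (7048 bp, 2 regions), LOC547349 (6965 bp, 3 regions), Lhx4 (6861 bp, 3 regions) and Pax2 (6805 bp, 4 regions). Pde11a, a phosphodiesterase gene, carried its 5 regions between 253198 and 271849 bp from its 5′ end and none nearer.

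**Figure D5:**
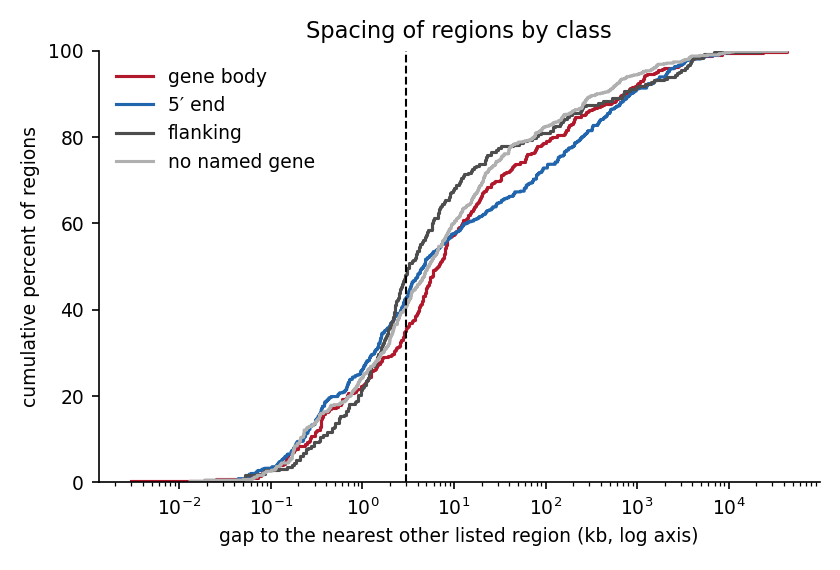
Cumulative percent of regions by the gap to the nearest other listed region (kb, log axis) for the 4 classes, with a dashed line at 3 kb. At that line the gene-body curve (35.8%) is the lowest and the flanking curve (48.0%) the highest.

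Some host genes of gene-body regions stood next to a developmental factor gene on the chromosome. Gene order was taken from RefSeq (GRCm38.p6), in which 300 of the 307 genes were found, 27 of them by an older symbol. Of 226 protein-coding hosts outside the factor list, 16 (7.08%) had a factor gene as a direct neighbour, against 8.19% of all genes named in the list, 8.54% of genes with a 5′ end region and 5.96% of all protein-coding genes. Without the many zinc finger genes named Zfp, the count was 12 (5.31%), against 6.51%, 6.34% and 3.82%. The share among hosts was thus below that of the list as a whole. Examples, named after their values were seen, were Skap1 next to Hoxb1, Clybl next to Zic5, Myo3b next to Sp5, Cnpy1 next to En2, Dqx1 next to Tlx2, 1700106N22Rik next to Six3 and 4930506M07Rik next to Vax1. In Clybl, an enzyme gene, 2 regions at 193491 and 198983 bp from its 5′ end held 127 ChIP and 15 input tags. In Myo3b, a myosin of sensory cells, 2 regions at 304166 and 357854 bp held 59 and 3. In Cnpy1, 1 region at 19191 bp held 46 ChIP tags and no input tag. None of these 3 genes had a region at its own 5′ end, and whether the mark in them belongs to the neighbouring gene was not tested.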

How the data were processed

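H3K27me3 ChIP-seq of mouse rib chondrocytes (1 ChIP and 1 input library, no replicates) was analysed from the region table of the ChIP library. The authors mapped the reads to mm9, as the submitters' processing notes name it, and used QuEST to call regions over the input. Its settings are not given in the sources used here. The authors deposited whole-number tag counts of both libraries per region without normalization. The deposited tag enrichment is a ratio of these counts, with a floor of 9.20 input tags per kb, as found from the values. The deposited signal is the height of the smoothed profile, and each deposited q-value stands as its −log10. Whether positions count from 0 or 1 is not stated. Length was taken as end minus start plus 1.

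The 2268 rows of the table were joined into 2017 regions and classed by the distance of 2500 bp from a 5′ end. Ratios were given 95% Clopper-Pearson intervals of the ChIP share, which treat tags as independent molecules and cover counting error only, and medians 95% intervals from order statistics. A count of 0 was set to 3 counts for a bound. The total depth is not in the table, and a median of 53.5 ChIP and 6 input tags per gene-body region sets the precision. No test between groups was possible or made.

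The members and lists were chosen with earlier results of these data known. Named genes were those of the 10 gene-body regions with the most ChIP tags, the 10 with the highest enrichment and the 10 longest, the 10 genes with the most bp, the 5 regions farthest from a 5′ end, the 5 on each side of the limit, members of the symbol lists and Wnt10a. Some genes that this rule picks are not reported here. Alternatives were other distances, limits on the q-value, height and input, merged regions and regions left out. Lists corrected by gene, the neighbour count without Zfp genes and the ratio without the Raet1 regions were added after seeing the data. RefSeq (GRCm38.p6) gave names, gene order and promoters. The scripts were checked on simulated data and ran under Python 3.11.15 with pandas 2.3.3, numpy 2.4.6, matplotlib 3.10.9 and scipy 1.17.1.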

Additional observations from a re-analysis of the deposited data

How the results depend on the processing

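The data hold 1 ChIP and 1 input library, so there is no spread between samples, and heights below 8.0 were not listed. Of 106 recomputed values, 65 stayed within 1.5 times the main count or within the interval of the main value and 41 moved. With 1 limit for both kinds of region, most genes with a gene-body region lacked one at the 5′ end. The counts were 214 of 307 (69.7%) at 2500 bp, 352 of 429 (82.1%) at 1000 bp and 133 of 196 (67.9%) at 5000 bp. Of all 922 named genes, 43.9%, 68.0% and 24.4% had none at the same limits. When only the limit for a 5′ end region was raised to 5000 bp, the count was 141 of 307 and no longer a majority. The factor share was 21.8% against 22.7% of all named genes, and 23.5% against 22.7% with the limit of 1000 bp. It was 26.5% against 30.3% with the limit on the q-value and 30.6% against 31.7% with that on height. No paired analysis was possible because the ChIP library and its input form a single pair, and no replicate was there to leave out.

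With a limit of 1000 bp from a 5′ end in place of 2500 bp, 352 genes had no region at the 5′ end and 101 were factors. With 5000 bp, 196 genes had a gene-body region, 133 of them with none at the 5′ end, and the lists held 42 factor, 7 signalling, 7 adhesion and guidance, and 16 channel genes. With a −log10 q-value of at least 50, 201 regions in 151 genes were left. Of these genes, 109 (72.2%) had no region at the 5′ end that passed the same limit, beside 42.9% of all genes named by the regions left. The medians were then 1633 bp, 53.8 ChIP tags per kb, an enrichment of 5.65 and a height of 8.90, the pooled ratio was 7.38, and the lists held 40 factor, 7 signalling, 4 adhesion and guidance, 9 channel, 1 matrix and 10 noncoding genes. With a height of at least 10, 50 regions in 49 genes were left. Of these genes, 44 (89.8%) had no region of that height at the 5′ end, beside 45.0% of all genes named by the regions left. Both limits also dropped weaker 5′ end regions, so both counts take in genes for which such a region is listed. The medians were 1346 bp, 59.3 ChIP tags per kb, an enrichment of 6.07 and a height of 10.7, the pooled ratio was 6.80, and the lists held 15 factor, 2 signalling, 2 adhesion and guidance, 4 channel, 0 matrix and 4 noncoding genes. These limits leave fewer, longer or higher regions by construction. Without regions whose input was at least 2 times the floor the ratio was 7.91. A neighbour within 10000 bp was found for 264 regions. When a 5′ end region could lie up to 5000 bp from the 5′ end, 141 genes had none. With the input set to the floor, the ratio at the largest region fell to 4.92 in Prox1 and to 5.75 in Dlx6os1. Regions merged across gaps of at most 3000 bp numbered 342, and a count of 1 gene a region gave 301 genes.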
